A study of Mus musculus with 8 samples.

Results

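The 8 genes described here encode transcription factors of the endocrine lineage of the gut: Neurog3, Neurod1, Insm1, Nkx2-2, Pax4, Pax6, Isl1 and Etv1. They were found by taking every array probe whose gene name equalled 1 of these symbols, which gave 13 probes of the 55681 on the array. Of the 8 genes, 6 were bright enough to be tested among the 23282 genes compared. RNA of E18.5 mouse embryos, from the small intestine, was hybridised to 8 single-colour arrays. The control group held 4 wild-type samples (Rfx6+/+), and the knockout group held 4 samples homozygous for a deleted Rfx6 allele (Rfx6-/-). The deleted allele was made by mating Rfx6f/+ animals to CMV-Cre animals. CMV-Cre is a general deleter, so the loss was not limited to endocrine cells, and the knockouts were bred by intercrossing heterozygotes. Strain, sex and litter are not given in the sources used here, nor whether each sample was 1 embryo, so p-values measure the spread between these samples.

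Hormone-producing cells of the gut arise from progenitors that escape Notch signalling and switch on Neurog3 for a short time. Neurog3 in turn starts a cascade of further transcription factors, among them Neurod1, Insm1, Nkx2-2, Pax4, Pax6 and Isl1, which carry the cells to a hormone-specific identity. Rfx6, a winged-helix factor, acts in the same lineage in pancreas and gut. The comparison asks how the RNA of these factors differed when Rfx6 was deleted. In whole-tissue RNA, fewer cells of a type and less RNA per cell cannot be told apart.

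Levels are log2 of the processed signal of a probe minus the log2 of the 75th percentile of its array. Levels of different probes are not comparable with each other. Differences are knockout minus control. That percentile was 636 signal units on the dimmest array and 741 on the brightest, and each array had 57.5% to 67.2% of its probes well above background. The Rfx6 probe stood at -3.14 ± 0.40 (SD, n = 4) in controls and -2.76 ± 0.56 (SD, n = 4) in knockouts (limma adjusted p = 0.503), so it does not check the labels and groups are called as labelled. Markers of intestinal epithelium were present on all arrays: 8 of 8 were tested and 1 was lower, Fabp2, which fell by 0.42 (limma adjusted p = 0.0482, a call lost under 15 of 22 alternatives, among them leaving out any array but knockout array 4, at adjusted p up to 0.148). Their summed level was 10.24 to 10.35 in controls and 9.87 to 10.11 in knockouts. A summed level adds the unlogged levels of a list's tested genes, so the brightest genes weigh most.

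None of the 6 tested factors passed the threshold of an adjusted p under 0.05 in limma: 0 were lower and 0 were higher in knockouts. Over all genes tested, 4.92% passed, 2.59% lower and 2.33% higher. At an unadjusted p under 0.05 there were 2 of the 6 factors, Neurog3 and Isl1, beside 4773 of the 23282 genes. Neurog3 was the 1 factor whose groups did not overlap, and it lay higher in knockouts. Of all genes, 14.6% had groups that did not overlap, 9.24% lower and 5.40% higher. Neurod1 and Pax6 were too dim to test in limma.

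**Figure D1:**
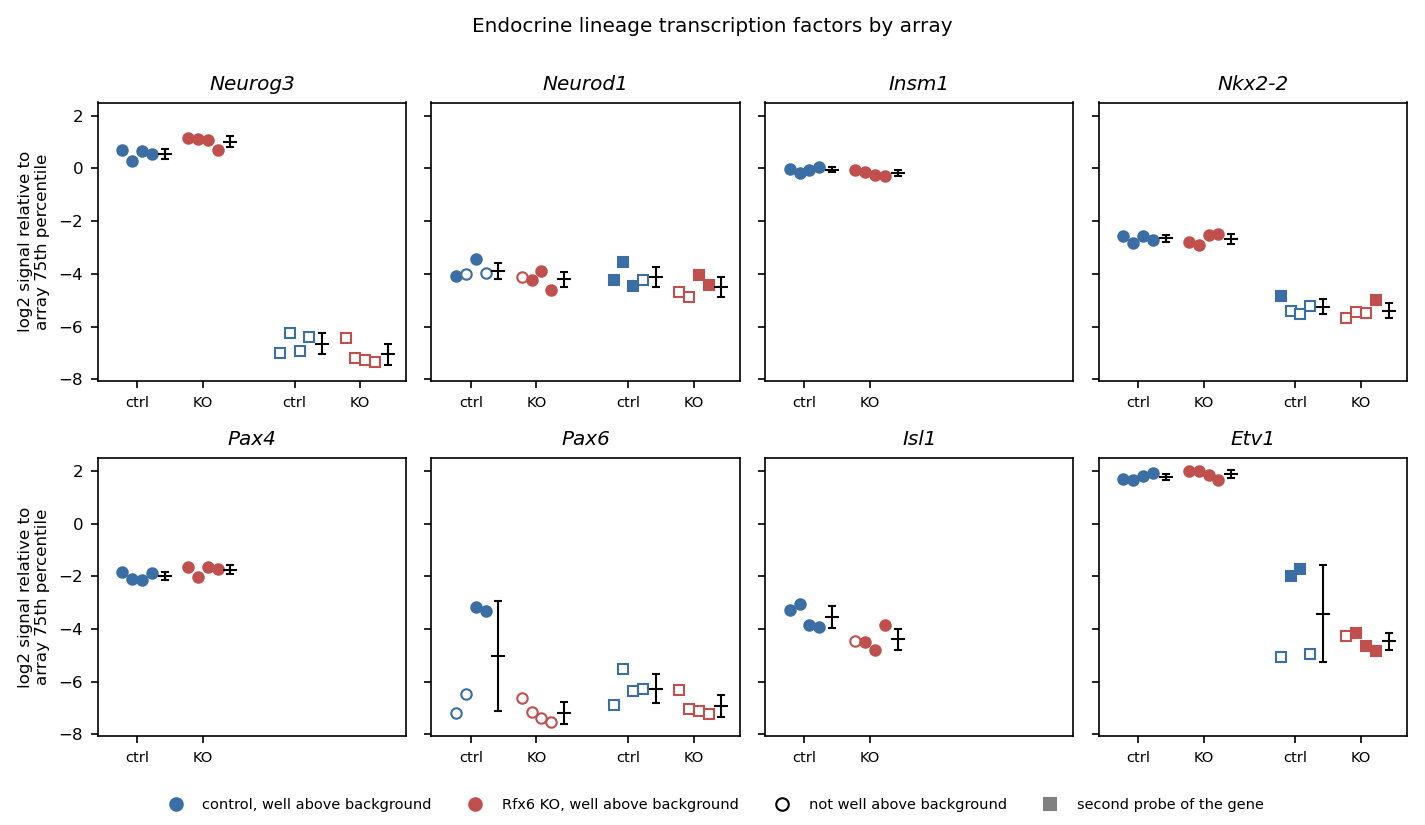
Log2 level relative to the array's 75th percentile for every probe of the 8 factors on the 4 control (blue) and 4 Rfx6 KO (red) arrays; squares are second probes, open symbols were not well above background, and black bars give the mean and SD. Neurod1 and Pax6 have no probe that was filled on all 4 arrays of a group.

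Neurog3, the basic helix-loop-helix factor that starts the endocrine programme, gave levels of 0.71, 0.29, 0.67 and 0.54 on control arrays 1 to 4. On knockout arrays 1 to 4 it gave 1.15, 1.11, 1.09 and 0.72. All knockout arrays lay above all control arrays, but knockout array 4 stood by itself next to the highest control. The means were 0.55 ± 0.19 (SD, n = 4) in controls and 1.01 ± 0.20 (SD, n = 4) in knockouts. The difference was 0.46 with a standard error of 0.13 and a 95% interval of 0.17 to 0.76, a ratio of 1.38. It missed the threshold (limma adjusted p = 0.0822), and the exact two-sided permutation p over the 70 splits of the arrays was 0.0286, the smallest they can give. Without knockout array 4 the difference was 0.56 (limma adjusted p = 0.0403). Over 22 alternatives it ran from 0.38 to 0.56, with limma adjusted p between 0.0201 and 0.229. The sign was the same in both rows of the slide, 0.26 in row 1 (1 control and 3 knockout arrays) and 0.65 in row 2 (3 control and 1 knockout).

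The Neurog3 probe that gave these values lies at chr10:61597452-61597511 on mm9, on the plus strand, and starts at base 1480 of its transcript. A second Neurog3 probe, at chr10:61596051-61596110, was well above background on 0 of the 8 arrays. The result on Neurog3 therefore rests on 1 probe with 1 spot per array. Stomach epithelium markers moved in the same samples: 8 of 10 tested were higher, and their summed level was -0.27 to 2.09 in controls and 8.55 to 9.45 in knockouts. Apart from Gkn3, the called markers entered the test through the knockouts, the group where they were higher. Gkn1 and Tff1 were well above background on 2 of 4 control arrays, Atp4b on 1, and Atp4a and Vsig1 on 0. The control sum thus partly holds readings near background. Gkn2 and Cblif, both products of stomach epithelium, were at least 2322-fold and at least 103-fold higher, with neither well above background on any control array. Such a bound divides the brighter group's mean by a floor, which on each dim array is the lowest probe signal well above background, or the probe's own signal if higher. The part of these markers in the Neurog3 values was not tested.

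**Figure D2:**
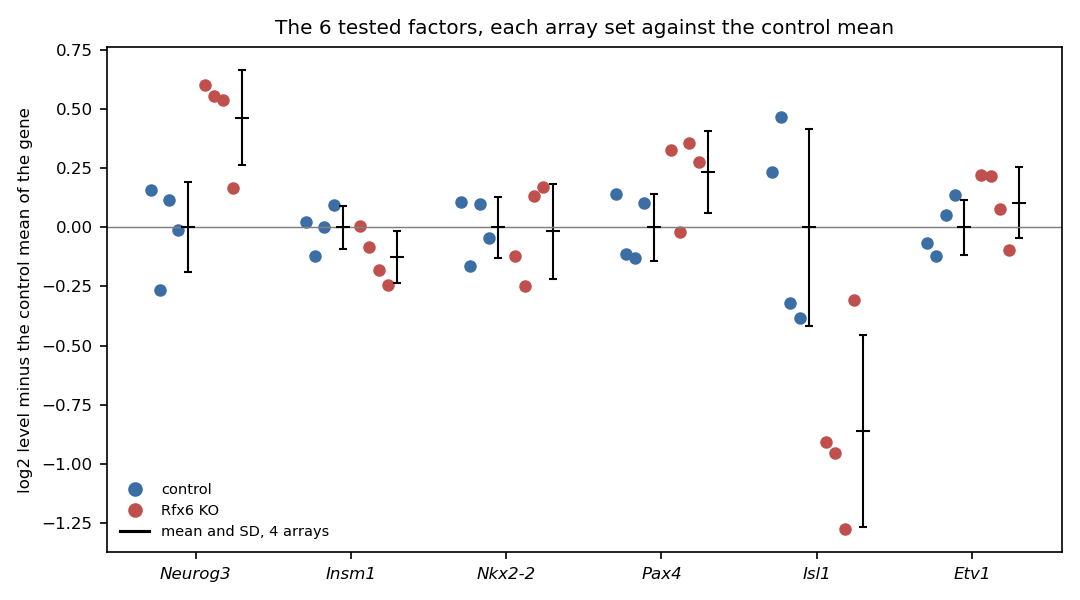
Log2 level of the 6 tested factors minus the control mean of each gene, for 4 control (blue) and 4 Rfx6 KO (red) arrays, with black bars for the group mean and SD. Neurog3 is separated between groups, Isl1 is lower on 3 of the 4 knockout arrays than on any control array, and the groups of the other factors overlap.

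Most genes of secretory fate and Notch signalling did not pass the test. Of 15 secretory fate and Notch genes, all 15 were tested, 1 was lower and 1 was higher, with a median difference of 0.15 beside -0.05 over all genes tested. All genes tested gave 2.59% lower and 2.33% higher. Hes6, a Hes-family factor that opposes Hes1, fell by 0.45 (limma adjusted p = 0.0466). Spdef, a factor of goblet and Paneth cells, rose by 0.50 (limma adjusted p = 0.0455). Each of these calls was lost under 13 of the 22 alternatives. Leaving out any array but control array 4 ended the call on Hes6, and any but control array 2 that on Spdef, with limma adjusted p up to 0.155 and 0.148. Atoh1, which commits cells to the secretory fate, differed by 0.40 and did not pass (limma adjusted p = 0.117). Hes1, the Notch target that represses Neurog3, differed by 0.02 (limma adjusted p = 0.939).

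Neurod1, a basic helix-loop-helix factor switched on after Neurog3, was near background on both of its probes. Its first probe lies at chr2:79294309-79294368 on mm9, minus strand, and gave -4.10, -4.00, -3.44 and -3.97 in controls. In knockouts it gave -4.12, -4.22, -3.89 and -4.61. The groups overlapped, and the probe was well above background on 2 of 4 control and 3 of 4 knockout arrays. The means were -3.88 ± 0.30 and -4.21 ± 0.30 (SD, n = 4 each; exact two-sided permutation p = 0.171). The second probe, at chr2:79293621-79293680, gave -4.22, -3.55, -4.46 and -4.23 in controls and -4.70, -4.89, -4.03 and -4.41 in knockouts. These groups overlapped too, with a difference of -0.39 (exact two-sided permutation p = 0.229) and 3 of 4 and 2 of 4 arrays well above background. A difference in Neurod1 was not measurable at this signal. The sequence of the first probe is given because the reading depends on which stretch of RNA was captured, starting at base 923 of the transcript.
Neurod1 probe A_55_P2004972: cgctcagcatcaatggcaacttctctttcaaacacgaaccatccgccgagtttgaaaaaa

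Insm1, a zinc-finger factor that represses progenitor genes in early endocrine cells, was measured well above background on all 8 arrays. The control arrays gave -0.03, -0.18, -0.05 and 0.04, and the knockout arrays gave -0.05, -0.14, -0.23 and -0.30. Knockout arrays 3 and 4 lay below all controls and the other two lay among them. The means were -0.05 ± 0.09 and -0.18 ± 0.11 (SD, n = 4 each). The difference of -0.13 had a standard error of 0.086 and a 95% interval of -0.32 to 0.07 (limma adjusted p = 0.450). It was -0.19 within slide row 1 and 0.01 within row 2. Its probe lies at chr2:146050603-146050662 on mm9, plus strand.

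Nkx2-2, a homeodomain factor needed for several hormone cell types, showed the difference nearest to 0. The control arrays gave -2.55, -2.82, -2.55 and -2.70, and the knockout arrays gave -2.78, -2.90, -2.52 and -2.48. Each group spanned the other's mean, and the means were -2.65 ± 0.13 and -2.67 ± 0.20 (SD, n = 4 each). The difference was -0.02 with a 95% interval of -0.28 to 0.25 (limma adjusted p = 0.949), and its sign turned under quantile normalization and median centring. The probe lies at chr2:147008949-147009008 on mm9, minus strand. A second probe for another transcript, at chr2:147003307-147003366, was well above background on 1 of 4 arrays in each group.

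Pax4, a paired-domain repressor that takes part in the choice between hormone fates, gave -1.85, -2.11, -2.12 and -1.89 in controls. It gave -1.66, -2.01, -1.63 and -1.71 in knockouts. Knockout arrays 1, 3 and 4 lay above all controls and knockout array 2 lay among them. The means were -1.99 ± 0.14 and -1.76 ± 0.17 (SD, n = 4 each), a difference of 0.24 with a standard error of 0.11 and a 95% interval of -0.02 to 0.49. It did not pass (limma adjusted p = 0.276; exact two-sided permutation p = 0.0857). The difference was 0.06 in slide row 1 and 0.37 in row 2. Its probe lies at chr6:28392356-28392415 on mm9, minus strand.

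Pax6, a paired-domain and homeodomain factor of differentiated hormone cells, was detected on 2 arrays alone. Its first probe gave -7.18, -6.45, -3.16 and -3.32 in controls and -6.60, -7.16, -7.39 and -7.54 in knockouts. Control arrays 3 and 4 were well above background, and the other 6 arrays were not. The exact two-sided permutation p was 0.0857 for a difference of -2.15, and the control SD of 2.09 was about as large as the difference. The second Pax6 probe, at chr2:105536454-105536513 on mm9, was well above background on 0 of the 8 arrays. On that probe control arrays 3 and 4 gave -6.35 and -6.27 beside -6.87 and -5.53 on control arrays 1 and 2, so it did not repeat the split among controls. No spot of either probe was marked as an outlier. The first probe is printed because its file position, chr2:105524098-105524949 on the plus strand, covers 852 bases for a 60-base sequence, so it is not contiguous on the genome.
Pax6 probe A_52_P469306: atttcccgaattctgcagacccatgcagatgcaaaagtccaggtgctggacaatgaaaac

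Isl1, a LIM-homeodomain factor of hormone cells and of some neurons and mesenchyme, read lower on 3 of the 4 knockout arrays than on any control array. The control arrays gave -3.30, -3.06, -3.85 and -3.91. The knockout arrays gave -4.44, -4.49, -4.81 and -3.84. Knockout arrays 1 to 3 lay below all controls, while knockout array 4 lay just above control arrays 3 and 4, so the groups overlapped. The means were -3.53 ± 0.42 and -4.39 ± 0.41 (SD, n = 4 each). The difference was -0.86 with a standard error of 0.25 and a 95% interval of -1.42 to -0.30, a ratio of 0.551. It missed the threshold (limma adjusted p = 0.0888; exact two-sided permutation p = 0.0857). Isl1 was well above background on 4 of 4 control and 3 of 4 knockout arrays, so it entered the test through the controls, the group where it was higher. With no filter the limma adjusted p was 0.212, and with a filter on all 8 arrays it was not tested. Without knockout array 4 it was -1.05 (limma adjusted p = 0.0465). Over its alternatives it ran from -1.05 to -0.30, with limma adjusted p between 0.0428 and 0.228. The smallest size, -0.30, came from the series matrix and -0.40 from normexp background correction. Why these sizes are smaller was not tested. Within slide rows 1 and 2 it was -1.08 and -0.83.

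The Isl1 probe, at chr13:117088774-117088833 on mm9, minus strand, was printed at 10 spots per array, which allows the reading error within an array to be seen. Of the 80 spots, 7 were marked as outliers and left out. The SD between spots of an array ran from 0.12 on control array 1 to 0.32 on control array 3, below the SD of 0.42 between control arrays. On knockout array 1, 0 of the 7 spots used were well above background, whereas all 10 were on knockout arrays 2 and 4. The spots of knockout array 4 lay between -3.97 and -3.61, above every spot used on knockout arrays 1 to 3. The higher level of knockout array 4 was thus shared by all of its spots.

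**Figure D3:**
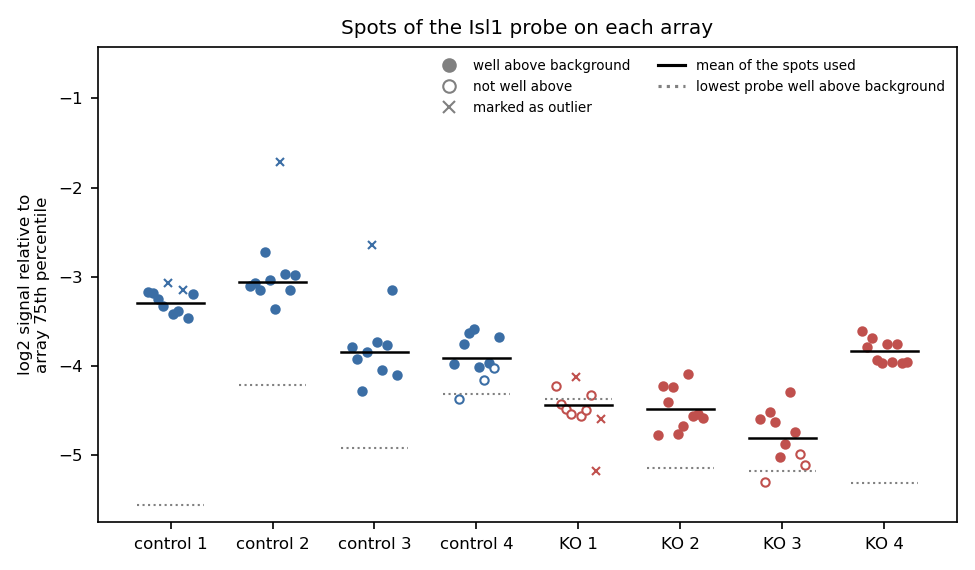
Log2 level relative to the array's 75th percentile of each spot of the Isl1 probe on the 4 control (blue) and 4 KO (red) arrays; crosses were marked as outliers, open circles were not well above background, solid lines are means of the spots used and dotted lines the lowest probe well above background. All 10 spots of KO 4 lie above the spots used on KO 1 to 3.

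Because Isl1 is also made outside the epithelium, marker lists of other cell types are given beside it. Of the enteric neuron markers, 11 of 12 were tested and none was called in limma, with a median difference of 0.07. Summed levels were 5.65 to 5.77 in controls and 5.54 to 5.73 in knockouts. This sum was mostly Snap25, with means of 5.17 in controls and 4.91 in knockouts (limma adjusted p = 0.219), so it mainly follows that gene. Of the pyloric and stomach mesenchyme markers, 2 of 5 were tested and none was called, with summed levels of -2.46 to -2.17 and -2.37 to -1.91; Barx1, Nkx2-5 and Six2 were too dim. Of the endocrine pancreas markers, 4 of 7 were tested and 4 were lower, with summed levels of 2.90 to 3.27 in controls and 2.15 to 2.50 in knockouts. That sum was mostly Slc2a2, a glucose transporter, with means of 2.81 in controls and 2.12 in knockouts. The sum thus mainly follows this gene and is no measure of the hormone genes on the list. Ins2 was the next brightest, with means of -0.15 and -0.93. Iapp fell by 3.39 and Ins1 fell by 2.27 (limma adjusted p = 2.94e-05 and 0.00929), with 3 of 4 knockout arrays reading Ins1 well above background, while Ppy, G6pc2 and Slc30a8 were too dim. Of the exocrine pancreas markers, 7 of 8 were tested and none was called, with a median difference of -0.78. Their summed level was 3.10 to 4.76 in controls and 2.47 to 4.25 in knockouts. The part of any of these cell types in the Isl1 values was not tested.

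Etv1, an ETS-family factor of enteroendocrine cells that interstitial cells of Cajal also make, was well above background on all arrays on its first probe. The control arrays gave 1.70, 1.64, 1.82 and 1.90, and the knockout arrays gave 1.99, 1.99, 1.84 and 1.67. Knockout arrays 1 and 2 lay above all controls and the other two lay among them. The means were 1.77 ± 0.12 and 1.87 ± 0.15 (SD, n = 4 each), and the difference was 0.10 with a 95% interval of -0.12 to 0.33 (limma adjusted p = 0.594). The probe lies at chr12:39593054-39593113 on mm9, plus strand.

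A second Etv1 probe, at chr12:39594622-39594681, gave another pattern. Its levels were -5.06, -1.97, -1.70 and -4.94 in controls and -4.26, -4.14, -4.63 and -4.82 in knockouts. This probe was well above background on 2 of 4 control and 3 of 4 knockout arrays, so it did not pass the filter. Control arrays 1 and 4 were not well above background. Control arrays 2 and 3 stood apart from the other 6 arrays, and the exact two-sided permutation p for the difference of -1.04 was 0.429. On the first probe control arrays 2 and 3 did not stand apart. Of the markers of interstitial cells of Cajal, 4 of 5 were tested and 2 were higher: Ano1 by 0.64 and Kit by 0.41 (limma adjusted p = 0.00752 and 0.0462). Their summed level was 2.57 to 2.76 in controls and 3.08 to 3.33 in knockouts, and the call on Kit was lost under 13 of 22 alternatives, among them leaving out any array but knockout array 4 (limma adjusted p up to 0.150). The part of these cells in the Etv1 values was not tested.

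Other factors of the lineage give the setting for the 8. Of 27 such genes, 21 were tested, 2 were lower and 4 were higher, with a median difference of -0.04 beside -0.05 over all genes tested. The shares called over all genes tested were 2.59% lower and 2.33% higher. The lower genes were Nkx6-3 and Gata4, and leaving out 1 array gave 1 or 2 lower genes, with 1 without control array 1, 3 or 4 or knockout array 2, 3 or 4. Nkx6-3, a homeobox factor of antral stomach and duodenum, fell by 3.44 (standard error 0.56; limma adjusted p = 0.00973). Gata4, a factor of proximal intestine, fell by 0.51 (limma adjusted p = 0.0396), a call lost under 11 of 22 alternatives. Among them were leaving out any array but control array 2 (limma adjusted p up to 0.116). Without knockout array 1 the 2 lower genes thus held another gene of the list beside Nkx6-3. The higher genes were Foxa1, Lmx1a, Foxa2 and Tox3. Foxa1 and Foxa2, forkhead factors of gut epithelium, rose by 1.23 and 1.00 (limma adjusted p = 0.00161 and 0.00457). Lmx1a, a LIM-homeodomain factor of serotonin-producing cells, rose by 1.16, and Tox3 rose by 0.60 (limma adjusted p = 0.00112 and 0.0221). The call on Tox3 was lost under 7 of 22 alternatives, among them leaving out control array 3 or 4 or knockout array 1 or 2 (limma adjusted p up to 0.0681).

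**Figure D4:**
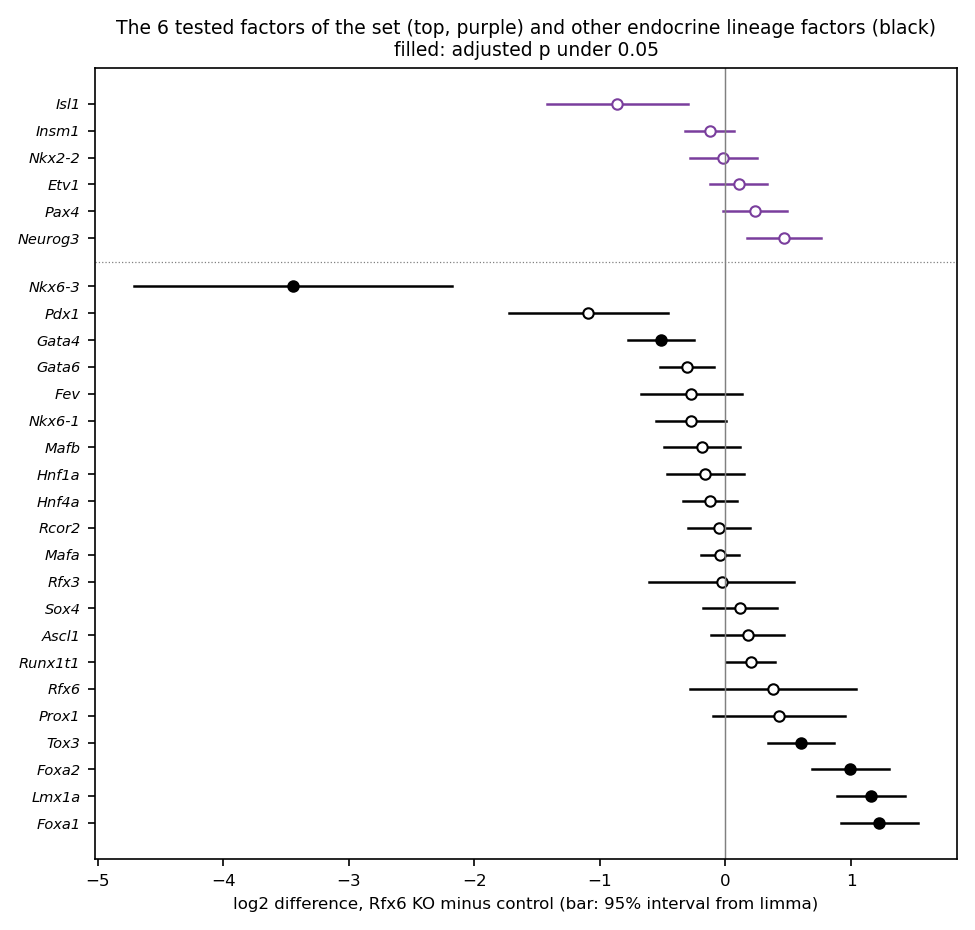
Log2 difference, Rfx6 KO minus control, for the 6 tested factors (top, purple) and 21 other factors of the endocrine lineage (black), with 95% intervals from limma; filled points had an adjusted p under 0.05. Among the 21, Nkx6-3 and Gata4 are the filled points below 0, and Foxa1, Lmx1a, Foxa2 and Tox3 those above.

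Among the products of the lineage, most hormone genes fell. Of 12 hormone and transmitter genes, all 12 were tested, 8 were lower and 1 was higher, with a median difference of -3.91. Beside this, 2.59% of all genes tested were lower and 2.33% higher. Gip and Gcg, which encode the incretin hormones, were at least 173-fold and at least 112-fold lower, both near background in all knockouts. Ghrl, encoding ghrelin, fell by 6.85 (limma adjusted p = 2.96e-09). Sst, encoding somatostatin, was also lower (limma adjusted p = 9.25e-08), with a measured difference of -7.33. Only 1 of 4 knockout arrays read Sst well above background, so the size is uncertain. Gip, Gcg and Sst thus entered the test through the controls, the group where they were higher. With a filter on all 8 arrays, 5 hormone and transmitter genes were lower. Tac1, encoding substance P, rose by 0.45 (limma adjusted p = 0.0406), a call lost under 11 of 22 alternatives, among them leaving out any array but control array 3 (adjusted p up to 0.121). Tph1, the enzyme of serotonin synthesis in the gut, differed by 0.39 and did not pass (limma adjusted p = 0.132).

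Genes of the secretory granule, shared by most endocrine cells, mostly did not pass. Of 13 tested, 2 were lower and none was higher, with a median difference of -0.12. Over all genes tested, 2.59% were lower and 2.33% higher. Scg2, a granin, fell by 1.25 and Syp, which encodes synaptophysin, fell by 0.49 (limma adjusted p = 0.0115 and 0.00969). The general endocrine markers Chga and Chgb differed by 0.26 and 0.17 and did not pass (limma adjusted p = 0.561 and 0.611).

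**Figure D5:**
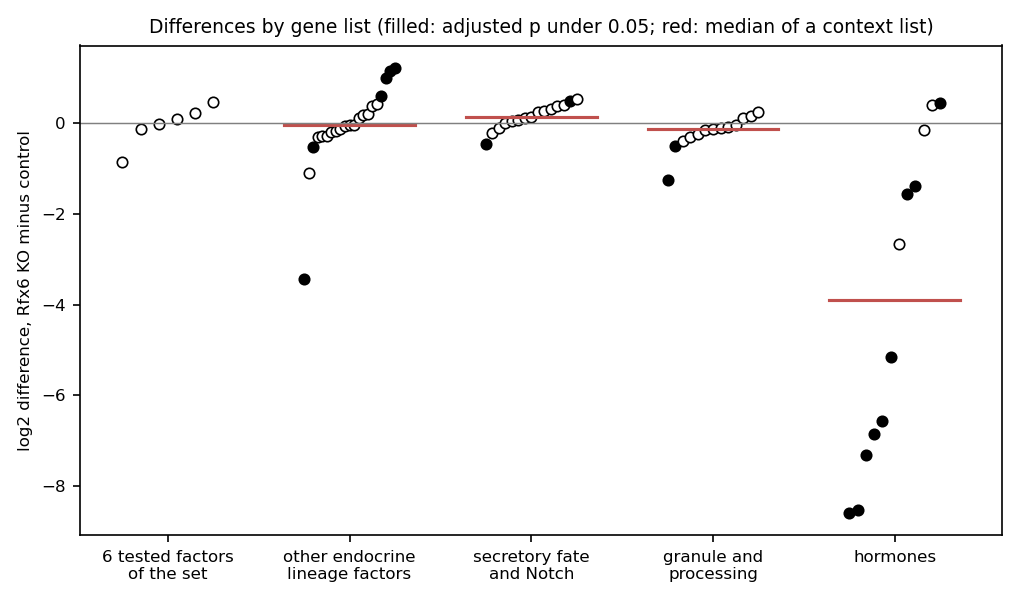
Log2 difference, Rfx6 KO minus control, for each tested gene of 5 groups; each point is 1 gene, filled points had a limma adjusted p under 0.05, and red lines are the medians of the 4 context lists. The hormone median is -3.91, the other medians lie between -0.12 and 0.15, and genes not well above background in knockouts are drawn at their measured values.

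For the 3 factors with the smallest p, the genes with the most similar profile were listed. The measure was the root mean square distance in log2 over the 8 arrays, each profile centred on its own mean. Nearest to Neurog3 were Atp2c2 at 0.0702, Dgka at 0.0703 and Podxl at 0.0787, beside 0.288 for the size of the Neurog3 profile itself. Their differences were 0.42, 0.46 and 0.48, beside 0.46 for Neurog3. Nearest to Isl1 were a non-coding interval named by its position on chromosome 3 at 0.0944, Plekhd1 at 0.107 and Upk3b at 0.151, beside 0.559 for Isl1 itself. Their differences were -0.88, -0.83 and -0.70, beside -0.86 for Isl1. Nearest to Pax4 were Ctsc at 0.0763, Pim3 at 0.0833 and Khnyn at 0.0976, beside 0.181 for Pax4 itself, with differences of 0.29, 0.25 and 0.14. These genes were chosen for their likeness over the same 8 arrays, so their differences are a description and carry no test.

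Promoters were read from RefSeq on GRCm38.p6 for 6 of the 8 genes, all but Insm1 and Pax4, as the 250 bases before the transcript start. The E-box CAGNTG, the kind of site that Neurog3 and Neurod1 bind, was searched on both strands and lay in 4 of the 8 promoters of these 6 genes, those of Etv1, Isl1, Neurog3 and Nkx2-2. It lay in 44.8% of all 32851 promoters of that length. The letters GTTGCC, a half-site of the X-box that RFX factors bind, lay on 1 strand or the other in 1 of the 8 promoters, of Pax6, 59 bases before its start, and in 10.4% of all promoters. The motifs do not overlap in these promoters. The promoters of the genes with the lowest p are shown, Neurog3 at chr10:62132840-62133089 on the plus strand and Isl1 at chr13:116309689-116309938 on the minus strand. Capitals mark the E-box, which starts 165 and 103 bases before the transcript start. A match is a description of the letters, not evidence of binding.
Neurog3 promoter: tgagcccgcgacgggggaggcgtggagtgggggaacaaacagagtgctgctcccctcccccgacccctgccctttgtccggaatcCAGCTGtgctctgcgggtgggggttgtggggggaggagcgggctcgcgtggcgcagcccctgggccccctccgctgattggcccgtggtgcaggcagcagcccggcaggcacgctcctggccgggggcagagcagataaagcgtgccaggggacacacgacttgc
Isl1 promoter: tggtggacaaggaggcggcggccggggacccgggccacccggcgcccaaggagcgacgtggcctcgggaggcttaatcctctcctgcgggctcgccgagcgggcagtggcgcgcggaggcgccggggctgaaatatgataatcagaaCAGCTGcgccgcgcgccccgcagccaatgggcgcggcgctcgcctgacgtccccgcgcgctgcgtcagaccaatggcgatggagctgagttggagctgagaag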

How the data were processed

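Total RNA of 8 samples was amplified and labelled with Cy3 from 100 ng, per the labels' protocols. The deposited scanner files hold an intensity per spot on a linear scale, background-subtracted by Feature Extraction 10.10.1.1 per the file headers and the submitters' processing notes, on an mm9 grid. All arrays lay on 1 slide with 1 scan. The deposited series matrix also holds an intensity per probe; its scale is linear, and its column medians are all 129.625 signal units, so its columns are scaled to each other.

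Each array has 62976 spots. Control spots (3671) and outlier spots (153 to 355 per array) were left out, and spots of a probe were averaged as log2. A probe counted as well above background where at least 50% of its spots were. A probe was kept (31668 were) if every array of either group, 4 arrays, read it well above background, and the probe with the highest mean represented its gene. Names came from the files and a GRCm38.p6 gene table. Of 55681 probes, 26320 had a current symbol, 2864 were named by accession, 492 by synonym, and 26005 kept the name in the file.

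Groups were compared in limma 3.58.1 (R 4.3.3; lmFit, eBayes), with two-sided p-values adjusted by Benjamini-Hochberg over the 23282 genes and called below 0.05. Every probe of the factors also got an exact two-sided permutation test, the sole test for probes too dim for limma. The number of arrays limits the precision. The fit was tested on simulated data.

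The 8 genes, the context and marker lists and the alternatives were chosen with earlier results of these data known. 1 further gene of the context lists is not reported here and was left out of the counts of its list. Named besides the 8 are Rfx6, Atoh1 and Hes1, called genes of each list (at most 4 in each direction, 3 for markers, not all printed), and the 3 genes nearest to each of the 3 factors with the smallest p. Tph1, Chga, Chgb and Snap25 were named after their values were seen. The alternatives were quantile normalization, normexp with offset 50, median centring, the series matrix, a filter on all 8 arrays or none, all probes of a gene averaged or tested singly, slide row or replicate number as a block, Xist level as a covariate, array weights, a trended robust prior and each array left out; keeping outlier spots was added after seeing the data.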

Additional observations from a re-analysis of the deposited data

Results flagged for a closer look

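In 12 of 118 groups of 4 values, counting the factor probes and the named genes, 1 array stood far from the other 3 by Dixon's criterion for 4 values, where chance gives about 1 in 20, or 5.9. Among the factors this was Neurog3 on knockout array 4, at 0.72 beside 1.09 to 1.15 on the other knockout arrays. Podxl stood low on the same array at 0.46, beside 0.73 on the others. Podxl and Dgka were chosen for their likeness to Neurog3 over these arrays, so their values are not separate from those of Neurog3, although they are among the 12.

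Knockout array 1 was high for Nkx6-3, at -2.41 beside -5.03 to -4.91, and for Tox3, at -0.49 beside -0.82 to -0.77. Knockout array 2 was low for Gata4, at 0.96 beside 1.33 to 1.37. Control array 2 was low for Dgka (0.64), Lmx1a (-3.11), Slc2a2 (2.59), a glucose transporter that fell by 0.68, and Sst (1.75). Control array 4 was low for Rfx6, at -3.74 beside -2.98 to -2.91. Atp4a on control array 3, at -5.95, and Gkn2 on control array 4, at -5.13, were high among values not well above background. The cause of these values was not tested.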

How the results depend on the processing

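Over 22 alternatives the differences of Insm1, Pax4 and Etv1 kept their sign and stayed short of the threshold. Neurog3 passed with the series matrix (0.48, limma adjusted p = 0.0328) and array weights (0.46, 0.0201), and Isl1 with array weights (-0.76, 0.0428), so the factors called higher numbered 1 under both settings and those called lower numbered 1 under array weights. Nkx2-2 turned to 0.027 under quantile normalization, 0.047 under median centring and 0.035 with the series matrix. Neurod1 differed by -0.033 in the series matrix. The difference of -2.15 on the first Pax6 probe shrank to -0.35 in the series matrix and -0.65 with normexp. Isl1 was not tested under the filter on all 8 arrays. Leaving out 1 array gave 0.38 to 0.56 for Neurog3, -1.05 to -0.71 for Isl1, -0.080 to 0.060 for Nkx2-2, -0.44 to -0.19 for Neurod1 and -2.86 to -1.52 for Pax6. It gave 0 to 1 factor called lower and 0 to 1 called higher, both 1 only without knockout array 4. Hes1 turned to -0.010 with array weights, -0.045 without control array 2 and -0.028 without knockout array 1; leaving out 1 array gave -0.045 to 0.054. The same replicate numbers do not pair samples (correlations of deviations -0.07, -0.17, 0.07 and -0.41). With the replicate block Neurog3 and Isl1 had limma adjusted p of 0.183 and 0.198, 148 genes were lower and 268 higher, granule genes lower fell to 0, other factors lower to 0, and hormones higher, secretory genes lower and secretory genes higher to 0. Of all genes, 253 were lower and 545 higher under median centring, 469 and 624 under quantile normalization, 202 and 298 without a filter, and 1268 and 829 with array weights, where 2 secretory genes were higher. The median over all genes ran from -0.095 to 0.013. Leaving out 1 array gave 217 to 589 genes lower and 335 to 509 higher; lower were 247 without control array 1, 315 without 3, 343 without 4, 217 without knockout array 1 and 231 without 2, and higher were 354 without control array 1, 335 without knockout array 1 and 343 without 2. Hormones lower were 5 under the filter on all 8 arrays and 7 to 8 on leaving out 1 array; hormones higher were 0 without a filter, with the slide row block or with Xist, and 0 to 1 on leaving out 1 array. Secretory genes lower were 0 under quantile normalization, median centring, no filter and every probe; secretory genes higher were 0 under median centring, no filter, every probe, the slide row block and Xist; leaving out 1 array gave 0 to 1 of each. Other factors lower were 1 under median centring, no filter and the slide row block; with 1 array left out they were 1 to 2, those higher 3 to 4, and granule genes lower 2 to 3. Where not stated, the cause of a change was not tested. Low signal kept Neurod1 and Pax6 out of the limma test.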
